A study of Homo sapiens with 23 samples.

Results

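The interleukin-6 (IL-6) family was described here through 8 genes chosen by name, each measured by the 1 probe set whose only annotated gene symbol was that gene, out of 21448 probe sets tested. The members were the cytokines OSM, LIF, IL6 and IL11, the shared signalling receptor IL6ST, which encodes gp130, and the receptors that join it, IL6R, LIFR and OSMR. RNA of 2 acute myeloid leukemia cell lines was hybridised to Clariom S HT arrays, giving 23 arrays in 8 groups. HL-60 and OCI-AML3 are established human lines, and the cells were either left untreated or incubated with 40 μM CIGB-300, a synthetic peptide inhibitor of protein kinase CK2, for 30 min or 3 h. Each line had untreated cells of each time as controls, with 3 replicate arrays per group except untreated OCI-AML3 at 30 min, where replicates 2 and 3 remained after the authors had set replicate 1 aside as an outlier. Each line stood for its cell background alone, and the labels name no further agent for any group.

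IL-6 family cytokines are secreted proteins, most of which act through gp130. IL-6 and IL-11 bring gp130 together through a ligand-specific receptor that does not signal itself, LIF joins gp130 to the LIF receptor, and in humans oncostatin M (OSM) joins gp130 to either the OSM receptor or the LIF receptor. The complexes activate JAK kinases and STAT3, which switches on genes such as the feedback inhibitor SOCS3, and in myeloid cells these cytokines are known for effects on differentiation and on inflammatory gene expression.

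The values were log2 expression values normalized across the arrays, so a difference of 1 is a 2-fold difference, and levels were compared between groups for 1 gene at a time. Array medians ranged from 5.38 to 5.44 for HL-60 cells and from 5.52 to 5.60 for OCI-AML3 cells. As a guide to background, the 95th percentile of 612 negative control features lay between 4.54 and 4.98 in HL-60 and between 4.32 and 4.44 in OCI-AML3. Of 10 markers of myeloid blasts measured, 10 lay above this guide in all HL-60 arrays and 9 in all OCI-AML3 arrays, and none of 6 T cell or 5 erythroid markers did so in all arrays of either line. Of 6 monocyte and macrophage markers 2 did so for HL-60 and 4 for OCI-AML3, and of 5 B cell markers 2 and 3. Of 6 megakaryocyte markers 1 did so in each line, of 6 endothelium markers also 1 in each, and of 5 fibroblast markers 1 and 2. Passing the guide was therefore not particular to myeloid markers. RNA was taken from whole cultures, in which more cells with a transcript and more transcript per cell cannot be told apart.

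OSM and LIF lie beside each other on chromosome 22, with the antisense gene LIF-AS2 the only other gene annotated wholly within the stretch they span. LIFR and OSMR lie near each other on chromosome 5, with 7 other genes annotated wholly within the stretch they span. RefSeq promoter sequences of the build GRCh38.p14 were given for 6 of the 8 genes, IL6, IL11, IL6ST, IL6R, LIFR and OSMR. The 250 bases before the transcript start are shown 5′ to 3′ for 3 of them, because IL6 and IL11 are the ligands whose values moved little below while IL6ST is the receptor that rose. The windows were chr7:22726950-22727199 on the plus strand for IL6, chr19:55370464-55370713 on the minus strand for IL11 and chr5:55994964-55995213 on the minus strand for IL6ST. Capitals mark exact matches to any of 6 motifs, searched on both strands.
IL6: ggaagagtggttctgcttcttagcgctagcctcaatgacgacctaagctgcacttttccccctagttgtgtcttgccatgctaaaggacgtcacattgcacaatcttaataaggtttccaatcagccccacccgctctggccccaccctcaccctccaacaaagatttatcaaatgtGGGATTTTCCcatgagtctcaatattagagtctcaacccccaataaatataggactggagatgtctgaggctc
IL11: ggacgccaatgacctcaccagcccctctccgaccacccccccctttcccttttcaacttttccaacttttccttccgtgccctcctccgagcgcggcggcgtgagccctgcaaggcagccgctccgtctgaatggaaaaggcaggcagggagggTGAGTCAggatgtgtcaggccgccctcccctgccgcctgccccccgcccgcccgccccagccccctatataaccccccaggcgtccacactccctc
IL6ST: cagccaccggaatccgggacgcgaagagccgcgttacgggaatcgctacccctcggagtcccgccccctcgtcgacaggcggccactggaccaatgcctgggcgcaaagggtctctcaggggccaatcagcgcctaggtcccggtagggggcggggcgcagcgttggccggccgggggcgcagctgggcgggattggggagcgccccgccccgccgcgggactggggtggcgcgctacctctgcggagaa
The motifs were AP-1 (TGANTCA), CRE (TGACGTCA), EGR (GCGNGGGCG), STAT (TTCNNNGAA), the NF-kB motif and the SRF CArG box. The capitals in IL6 are an NF-kB match, which 5.21% of 35116 promoters of the same length held, and those in IL11 an AP-1 match, which 6.57% held. IL6ST had none of the 6 motifs, nor had IL6R or OSMR. LIFR was given with 3 windows, each before a different transcript start, and the annotated gene extends further upstream than all 3. Of these windows 1 held 3 EGR matches (8.41% of promoters held at least 1) and the other 2 held 1 STAT match each (6.57% held at least 1). A match is a description of the letters and not of a bound site.

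By the unadjusted criteria given next, OSM and LIF were higher with CIGB-300 in OCI-AML3 at both times. The shared receptor IL6ST was higher in OCI-AML3 at 3 h, and no member met the criteria in HL-60. A differentially expressed gene (DEG) is, as in the methods of the study, one changed at least 1.5-fold with p under 0.01 before adjustment, and adjusted p-values are from limma over all 21448 probe sets. In OCI-AML3, 2 of the 8 members were DEGs at 30 min and 3 at 3 h, all higher, where 0.611% and 1.08% of all probe sets were higher DEGs and 1.07% and 1.6% were DEGs in either direction. At 3 h in OCI-AML3 the limma adjusted p was 0.04998 for OSM and 0.0766 for LIF. In HL-60, 0 of the 8 members were DEGs at 30 min and 0 at 3 h, where 0.877% and 3.87% of all probe sets were. The median log2 fold change of the 8 members was -0.08 in HL-60 and -0.02 in OCI-AML3 after 30 min and 0.14 and 0.42 after 3 h, and that of all probe sets lay between -0.03 and 0.00.

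**Figure D1:**
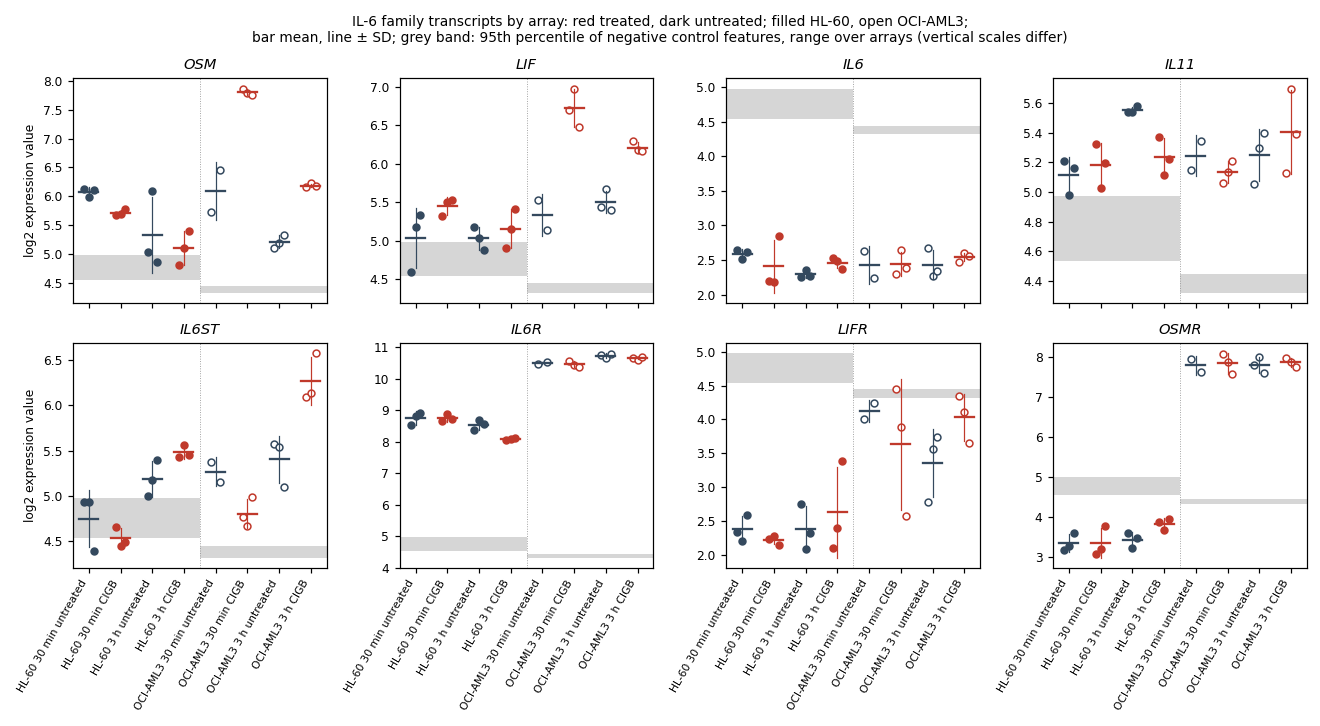
Log2 expression value (vertical axis) of each of the 8 genes on each array, by group (horizontal axis), with the group mean as a bar and its SD as a line; red points are treated and dark points untreated cells, filled points HL-60 and open points OCI-AML3, and the grey bands give the background guide of each line. OSM and LIF are highest in treated OCI-AML3 at 30 min, OSMR lies under the band in all 12 HL-60 arrays and above it in all 11 OCI-AML3 arrays, and IL6 lies under it on all 23 arrays.

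OSM, the ligand that signals through gp130 with OSMR or LIFR, gave the largest rise among the members. In OCI-AML3 at 30 min its log2 value was 7.87, 7.80 and 7.77 on the 3 treated arrays and 5.73 and 6.45 on the 2 untreated arrays. The treated arrays were close together and all above the untreated ones, which stood further apart. The log2 fold change was 1.72 ± 0.26 (SE, a 3.29-fold rise, adjusted p = 0.00384). At 3 h OSM measured 6.16, 6.22 and 6.17 in treated OCI-AML3 and 5.10, 5.19 and 5.33 in untreated cells. The groups did not overlap, and the log2 fold change was 0.98 ± 0.23 (1.97-fold, adjusted p = 0.04998). With any 1 of the compared arrays left out the DEG criteria were still met, but the adjusted p was 0.0978 to 0.164. With the replicate number as a block it was 0.0697. The treated level at 3 h was close to that of untreated OCI-AML3 at 30 min (mean 6.09 ± 0.51 SD, n = 2), and the untreated level at 3 h was lower than at 30 min. Against those 2 untreated arrays, a control chosen after seeing the data because the titles of the 3 later untreated OCI-AML3 arrays read 30h where their labels give 3 h, the treated arrays of 3 h differed by 0.09 (adjusted p = 0.924, with a range of 0.00274 to 0.924 over all alternatives of this value).

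In HL-60 OSM did not meet the criteria at either time. At 30 min it measured 5.68, 5.69 and 5.77 in treated and 6.13, 5.99 and 6.11 in untreated HL-60, so the treated arrays were all lower. The difference was -0.36 ± 0.23 (adjusted p = 0.871), with a 95% interval from -0.85 to 0.12. At 3 h the values were 4.80, 5.11 and 5.39 in treated and 5.02, 6.08 and 4.86 in untreated cells, with untreated replicate 2 far above the other 2 and overlapping groups (-0.22 ± 0.23, adjusted p = 0.692). Without that array the difference was 0.15 and so of the opposite sign. OSM lay above the background guide on 22 of 23 arrays, the exception being a treated HL-60 array of 3 h.

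LIF, which acts on gp130 together with LIFR, rose in the same line. In OCI-AML3 at 30 min its log2 value was 6.70, 6.98 and 6.49 with CIGB-300 and 5.52 and 5.14 without, and every treated array was above every untreated one. The log2 fold change was 1.39 ± 0.20 (2.63-fold, adjusted p = 0.00197). At 3 h the treated arrays read 6.29, 6.17 and 6.16 and the untreated arrays 5.44, 5.67 and 5.40. The groups again did not overlap, and the rise of 0.70 ± 0.18 (1.63-fold) met the DEG criteria with an adjusted p of 0.0766. Against untreated OCI-AML3 of 30 min the treated arrays of 3 h were higher by 0.88 (adjusted p = 0.0232, with a range of 0.0232 to 0.208 over the alternatives).

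LIF in HL-60 read 5.32, 5.51 and 5.53 with CIGB-300 at 30 min and 4.59, 5.18 and 5.33 without. The lowest treated array was just under the highest untreated one, and the difference was 0.42 ± 0.18 (adjusted p = 0.721). Untreated replicate 1 was far below the other 2, and was the only one of 23 arrays on which LIF did not exceed the guide; without it the difference was 0.20. At 3 h LIF was 4.90, 5.15 and 5.41 in treated and 5.18, 5.03 and 4.88 in untreated HL-60, with overlapping groups (0.12 ± 0.18, adjusted p = 0.791).

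The rises of OSM and LIF at 30 min rested on 2 untreated OCI-AML3 arrays. With replicate 2 of these left out, the rise of OSM was 1.36 and its adjusted p 0.178, and with replicate 3 left out the rise of LIF was 1.20 and its adjusted p 0.0834, both still within the DEG criteria. Over all alternatives the adjusted p of OSM at 30 min ran from 2.74e-05 to 0.192 and that of LIF from 0.000309 to 0.256.

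IL6 and IL11 were not DEGs in any comparison. IL6, the founding member of the family, ranged from 2.18 to 2.85 over all 23 arrays and exceeded the background guide on 0 of them, and its 8 group means spanned 0.30. Its treatment differences were between -0.19 and 0.16, each with an SE of 0.15 to 0.17. IL11, which acts through IL11RA and gp130, exceeded the guide on all 23 arrays, with a lowest value of 4.98. In HL-60 at 3 h IL11 read 5.37, 5.12 and 5.22 with CIGB-300 and 5.54, 5.54 and 5.58 without. All treated arrays were below the untreated ones, but the difference of -0.32 ± 0.13 did not meet the criteria (adjusted p = 0.194). In the other 3 comparisons the arrays overlapped and IL11 differed by -0.11 to 0.16.

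IL6ST, the receptor chain through which OSM, LIF, IL-6 and IL-11 all signal, was higher after 3 h of CIGB-300 in OCI-AML3. The treated arrays read 6.09, 6.14 and 6.58 and the untreated arrays 5.57, 5.54 and 5.10. No treated array fell among the untreated ones, and the log2 fold change was 0.87 ± 0.17 (1.82-fold, adjusted p = 0.0144). Without the highest treated array it was 0.71 (adjusted p = 0.0907), and without the lowest untreated array 0.72 (adjusted p = 0.0841), with the DEG criteria met both times. The adjusted p ran from 0.00645 to 0.229 over the alternatives.

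At 30 min in the same line IL6ST pointed the other way. Treated OCI-AML3 read 4.77, 4.66 and 4.98 and untreated cells 5.38 and 5.16, so that all treated arrays were lower. The difference of -0.46 ± 0.19 did not meet the DEG criteria (adjusted p = 0.657). In HL-60 IL6ST read 4.66, 4.45 and 4.49 with CIGB-300 at 30 min and 4.93, 4.93 and 4.39 without (-0.22 ± 0.17, adjusted p = 0.912). At 3 h treated HL-60 read 5.43, 5.56 and 5.45 and untreated HL-60 4.99, 5.18 and 5.39. The treated arrays were all higher there by a small margin, and the difference of 0.29 ± 0.17 was not significant (adjusted p = 0.392). IL6ST exceeded the guide on all 11 OCI-AML3 arrays and on 9 of 12 HL-60 arrays, the other 3 being arrays of 30 min.

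IL6R, the receptor that binds IL-6, was well above background in both lines. In HL-60 at 3 h it read 8.04, 8.07 and 8.13 with CIGB-300 and 8.36, 8.70 and 8.56 without. The groups were apart, and the difference of -0.46 ± 0.11 had an adjusted p of 0.014 but at 1.37-fold did not reach the fold criterion. IL6R was the 1 member of 8 with an adjusted p under 0.05 there, where 5.57% of all probe sets had one. With only the HL-60 arrays in the fit its adjusted p was 0.0785, and over all alternatives it ran from 0.000889 to 0.156. In the other 3 comparisons the arrays overlapped and IL6R differed by -0.08 to -0.01. It read 10.6, 10.4 and 10.4 in treated and 10.5 and 10.5 in untreated OCI-AML3 at 30 min, and 10.7, 10.6 and 10.7 against 10.8, 10.6 and 10.8 at 3 h.

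OSMR and LIFR, the chains that pair with gp130 for OSM and, in the case of LIFR, for LIF and OSM, did not meet the criteria in any treatment comparison. OSMR read 8.07, 7.85 and 7.56 in treated and 7.94 and 7.61 in untreated OCI-AML3 at 30 min, and 7.97, 7.85 and 7.75 against 7.79, 7.98 and 7.60 at 3 h. The groups overlapped at both times (0.05 ± 0.20 and 0.07 ± 0.18). In HL-60 OSMR lay under the background guide on all 12 arrays, from 3.07 to 3.94. There its 3 treated arrays of 3 h (3.86, 3.66 and 3.94) were above the untreated ones (3.58, 3.21 and 3.47), with a difference of 0.40 ± 0.18 (adjusted p = 0.241) within the range under the guide. LIFR exceeded the guide on 1 of 23 arrays, a treated OCI-AML3 array of 30 min at 4.44. Its spread was the widest of the members in treated OCI-AML3 at 30 min (4.44, 3.88 and 2.57, SD 0.96), and its difference at 3 h in OCI-AML3 was 0.68 ± 0.38 (adjusted p = 0.541), with a 95% interval from -0.12 to 1.47.

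**Figure D2:**
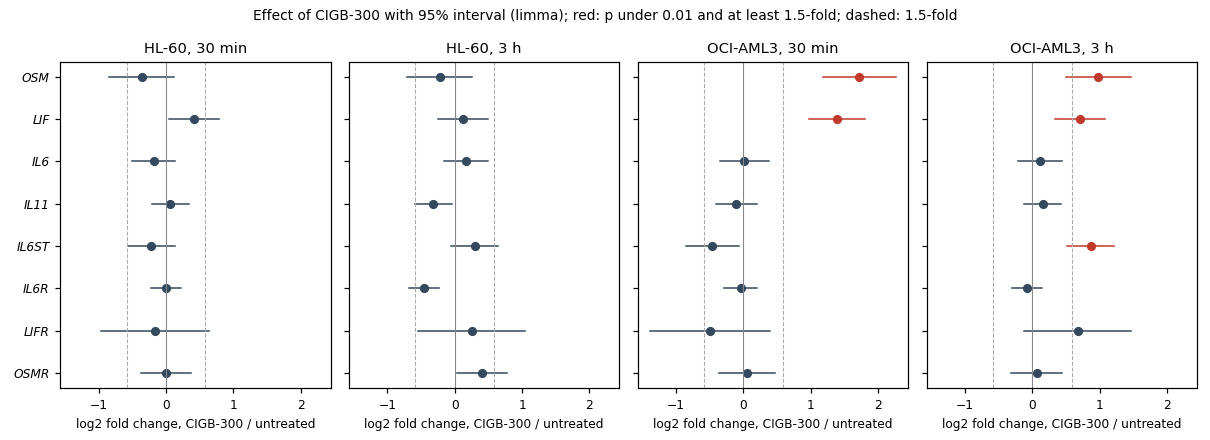
Log2 fold change of CIGB-300 over untreated cells (horizontal axis) with its 95% interval for the 8 genes (vertical axis) in the 4 comparisons; red marks the genes that met the DEG criteria and the dashed lines a fold change of 1.5. The red points are OSM and LIF in OCI-AML3 at 30 min (1.72 and 1.39) and OSM, LIF and IL6ST in OCI-AML3 at 3 h (0.98, 0.70 and 0.87).

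Whether the response differed between the lines was tested by the difference of the CIGB-300 effects, HL-60 minus OCI-AML3. At 30 min 2 of the 8 members met the DEG criteria in this test, where 1.39% of all probe sets did and 0.625% were lower in HL-60. The difference was -2.08 ± 0.35 on the log2 scale for OSM (adjusted p = 0.0155) and -0.97 ± 0.27 for LIF (adjusted p = 0.328). The OSM difference was smallest in size, at -1.72, without replicate 2 of untreated OCI-AML3 at 30 min. That fit left 1 untreated array in the group, so only its size is given here. Without replicate 1 of treated or of untreated HL-60 at 30 min the adjusted p of the OSM difference was 0.0554 or 0.05004. The LIF difference was -0.78 without replicate 3 of untreated OCI-AML3 at 30 min, and then no longer met the criteria. At 3 h 1 member met them, where 2.98% of all probe sets did and 1.45% were lower in HL-60. It was OSM, with a difference of -1.21 ± 0.33 (adjusted p = 0.0896) that ran from -1.43 to -0.83 with 1 array left out. The line differences of LIF and IL6ST at 3 h were -0.58 ± 0.25 (adjusted p = 0.382) and -0.57 ± 0.24 (adjusted p = 0.353) and did not meet the criteria, so a different IL6ST response at 3 h was not established between the lines. The same held for the IL6R response at 3 h (-0.38 ± 0.15, adjusted p = 0.326).

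Between the times, the effect on IL6ST in OCI-AML3 was higher at 3 h than at 30 min by 1.33 ± 0.25 (adjusted p = 0.0513), the 1 member of 8 that met the DEG criteria where 2.18% of all probe sets did and 1.17% were higher. The OSM and LIF effects in OCI-AML3 differed by -0.74 ± 0.35 and -0.69 ± 0.27 (adjusted p = 0.5 and 0.385), short of the criteria. With 1 array left out they ran from -1.10 to -0.38 for OSM and from -0.88 to -0.49 for LIF. OSM met the criteria without replicate 2 of untreated HL-60 at 3 h, and LIF without replicate 1 of untreated HL-60 at 30 min. These arrays are outside the comparison, so the values stayed at -0.74 and -0.69 and only the estimate of the spread changed. LIF also met them without replicate 3 of treated OCI-AML3 at 30 min (-0.81). For untreated OCI-AML3 at 30 min, OSM was -1.10 without replicate 3 and LIF -0.88 without replicate 2. In HL-60, 0 of 8 members met them, where 3.24% of all probe sets did. The IL6ST difference had the same direction there (0.51 ± 0.24, adjusted p = 0.406), and that of IL6R was -0.45 ± 0.15 (adjusted p = 0.183).

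Untreated cells also changed between 30 min and 3 h, and these arrays are the controls of the treatment comparisons. OSM fell by 0.75 ± 0.23 in untreated HL-60 (adjusted p = 0.153) and by 0.89 ± 0.26 in untreated OCI-AML3 (adjusted p = 0.129). It was the 1 member of 8 that met the DEG criteria in each line, where 1.5% and 2.01% of all probe sets did, and 0.522% and 0.835% as lower. In HL-60 the arrays overlapped, since the untreated array of 3 h at 6.08 lay between those of 30 min, and the criteria were no longer met without replicate 1 or 3 of either untreated group (differences of -0.74 to -0.52). Without replicate 2 at 3 h, the array at 6.08, the difference was -1.13 (adjusted p = 0.00615). In OCI-AML3 all arrays of 3 h were lower, and the criteria were no longer met without replicate 3 at 30 min (-0.53) or replicate 1 at 3 h (-0.84). LIF differed by -0.00 ± 0.18 in HL-60 and 0.17 ± 0.20 in OCI-AML3. IL6ST and IL11 were each 0.44 higher at 3 h in untreated HL-60 (adjusted p = 0.284 and 0.137), with all arrays of 3 h above those of 30 min and no call by the DEG criteria.

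OSMR and IL6R set the lines apart without treatment. Untreated HL-60 had less OSMR than untreated OCI-AML3, with log2 differences of -4.44 ± 0.20 at 30 min and -4.37 ± 0.18 at 3 h (adjusted p = 1.55e-12 and 2.87e-13). In untreated HL-60 OSMR read 3.15, 3.27 and 3.60 at 30 min and 3.58, 3.21 and 3.47 at 3 h, all under the background guide, so the 21.6-fold and 20.7-fold differences are set against a level not above background. IL6R was also lower in HL-60 (-1.75 ± 0.12 and -2.19 ± 0.11, adjusted p = 5.94e-10 and 3.32e-12), with 8.51, 8.82 and 8.91 in untreated HL-60 at 30 min against 10.5 and 10.5 in OCI-AML3. LIFR lay under the guide on every untreated array of both lines, so no difference between the lines is read from it. In all, 3 of 8 members met the DEG criteria between the lines at 30 min and 2 at 3 h, where 24.1% and 25% of all probe sets did, and none was higher in HL-60. The 1 member called at 30 min alone was LIFR, and that call is between levels that are not above background. Untreated OSM levels differed between the lines by -0.02 ± 0.26 at 30 min and 0.12 ± 0.23 at 3 h, with 95% intervals from -0.56 to 0.53 and from -0.37 to 0.60.

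The 8 groups were also ordered by their means, and neighbours in that order were compared. Neighbours are the closest means by construction, so a step that does not pass says nothing about groups further apart. For OSM treated OCI-AML3 at 30 min came first, 1.62 above treated OCI-AML3 at 3 h (adjusted p = 0.000572), and none of the other 6 steps passed an adjusted p of 0.05. For IL6ST treated OCI-AML3 at 3 h came first, 0.79 above treated HL-60 at 3 h (adjusted p = 0.000765), and again no other step passed. For LIF both treated OCI-AML3 groups came first, but no single step passed, the steps below them being 0.51 and 0.70 (adjusted p = 0.124 and 0.0766). IL6R and OSMR had their step between the lines, of 1.71 and 3.96, with 1 further step for IL6R from untreated to treated HL-60 at 3 h. IL6, IL11 and LIFR had no step that passed.

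Of the other ligands, receptors and soluble parts of the family, 12 of 14 listed genes were measured and 1 was a DEG in each line at 3 h, where 3.87% (HL-60) and 1.6% (OCI-AML3) of all probe sets were, with 0 at 30 min, where 0.877% and 1.07% were. It was IL27RA, the IL-27 receptor chain that pairs with gp130. It rose by 1.15 ± 0.10 in HL-60 (adjusted p = 2.05e-07) and by 0.76 ± 0.10 in OCI-AML3 (adjusted p = 0.000203), and the difference between the lines was 0.39 ± 0.14 (adjusted p = 0.252). IL11RA, the receptor chain for IL-11, differed by -0.13 to 0.15 in the 4 comparisons. The list median was 0.01 and 0.21 at the earlier and later time for HL-60, and -0.01 and 0.16 for OCI-AML3.

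Below the receptors, 14 of 16 genes of JAK-STAT, SHP2 and adaptor signalling were measured and 1 was a DEG, in HL-60 at 3 h, where 3.87% of all probe sets were. FES, a tyrosine kinase of myeloid cells, fell by 0.83 ± 0.13 (adjusted p = 0.000678). Its effect there minus that in OCI-AML3 was -0.70 ± 0.19 (adjusted p = 0.0928). PIK3R1 of the same list differed by -0.55 ± 0.14 in HL-60 at 3 h (adjusted p = 0.0251), short of the fold criterion. STAT3, the main transcription factor of the pathway, differed by -0.18 to 0.04 and JAK1 by -0.13 to 0.06, and JAK2 by -0.41 ± 0.13 in OCI-AML3 at 3 h, short of the fold criterion (adjusted p = 0.168). Of 13 measured negative regulators of gp130 signalling 0 were DEGs in any of the 4 comparisons, where 0.877% to 3.87% of all probe sets were. In HL-60 at 3 h, where 5.57% of all probe sets had an adjusted p under 0.05, so had 3 of these 13 without reaching 1.5-fold. They were the phosphatases PTPN1 (0.55, adjusted p = 0.000205) and PTPN6 (0.38, adjusted p = 0.0111) and the STAT inhibitor PIAS1 (-0.31, adjusted p = 0.0399). SOCS3, the feedback inhibitor that binds gp130, differed by 0.35 ± 0.22 (30 min) and -0.10 ± 0.22 (3 h) for HL-60 and by 0.01 ± 0.24 and -0.04 ± 0.22 for OCI-AML3. The median of the signalling list lay between -0.13 and 0.04 and that of the negative regulators between -0.05 and 0.04.

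Among genes known to be induced through STAT3, 26 of 27 were measured, and the number of higher DEGs was 5 and 8 for HL-60 at the earlier and later time and 3 and 5 for OCI-AML3, with 0 lower. Among all probe sets 0.877%, 3.87%, 1.07% and 1.6% were DEGs in either direction in the same order, and the higher ones alone made up 0.611% and 1.08% for OCI-AML3. The list median was 0.10, 0.33, 0.02 and 0.09 in the same order. JUNB and FOS, AP-1 subunits that many stimuli besides cytokines induce, and IER3, an early response gene, were DEGs in all 4 comparisons. The log2 fold changes of IER3 were 1.14 and 3.32 for HL-60, where its untreated means of 4.16 and 4.34 lay under the background guide, and 1.14 and 1.96 for OCI-AML3, where they were 8.41 and 7.15. BCL6, a transcriptional repressor, was up by 0.88 ± 0.09 in treated OCI-AML3 cells of 3 h (adjusted p = 2.52e-05). IL1RN, the antagonist of the IL-1 receptor, rose in HL-60 by 2.18 and 2.36 from untreated means of 2.82 and 3.08, which lay under the guide, so these values are set against a level not above background. In untreated OCI-AML3 its means were 9.29 and 9.48, and it was not a DEG there. ICAM1, an adhesion molecule, and MUC1, a mucin, rose in HL-60 at 3 h by 2.13 and 1.47, more than in OCI-AML3 by 1.49 ± 0.27 (adjusted p = 0.00566) and 1.44 ± 0.31 (adjusted p = 0.0211). PIM1, a kinase gene often used as a readout of STAT activity, differed by -0.27 ± 0.21 and -0.02 ± 0.21 for HL-60 and by 0.37 ± 0.24 and -0.06 ± 0.21 for OCI-AML3, and CEBPD by -0.30 to 0.23, with 0 calls.

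**Figure D3:**
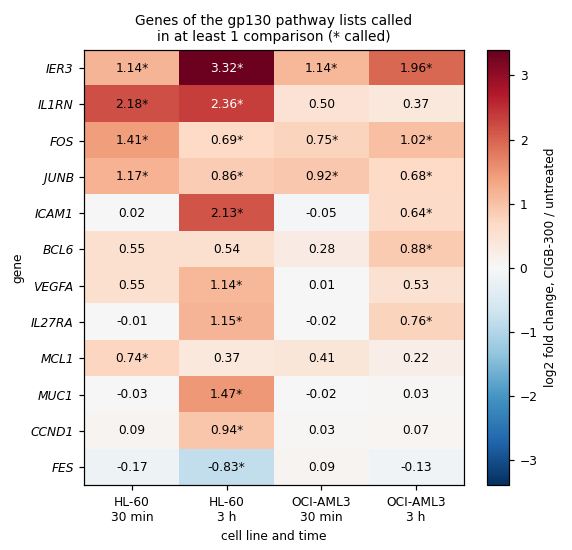
Log2 fold change of CIGB-300 over untreated cells (colour and number) for the 12 genes of the pathway lists that were DEGs in at least 1 of the 4 comparisons (columns), with DEGs marked by a star. IER3, FOS and JUNB are starred in all 4 columns, ICAM1 and IL27RA in both lines at 3 h, and MUC1 and FES in HL-60 at 3 h; MCL1, VEGFA and CCND1 stand outside the rule for named genes and are shown because they were called.

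The probe sets whose values ran most like those of OSM over the 23 arrays, among those with group means at least 1 apart, were BDNF (Pearson r = 0.90), IL10 (0.83) and FAM171A1 (0.77). These are correlations over arrays that share cell lines and treatments, given as a description. Within OCI-AML3 (11 arrays) they were 0.93, 0.90 and 0.77, and within HL-60 (12 arrays) 0.61, 0.32 and 0.50. BDNF, a neurotrophin, and IL10, a cytokine that also signals through STAT3, rose with OSM after 30 min in OCI-AML3, BDNF by 1.22 ± 0.18 (adjusted p = 0.00384) and IL10 by 0.86 ± 0.17 (adjusted p = 0.0496), and neither was a DEG in HL-60. For LIF the closest were RGS2 (0.89), ZFP36 (0.88) and IL10 (0.87), with 0.88, 0.92 and 0.85 within OCI-AML3 and 0.59, 0.57 and 0.13 within HL-60. RGS2, a regulator of G protein signalling, and ZFP36, which promotes decay of cytokine mRNAs, were higher DEGs in all 4 comparisons. For IL6ST the closest were FLVCR2 (0.86), ME1 (0.82) and FBXO31 (0.80), and these followed it within both lines, with 0.90, 0.90 and 0.80 in OCI-AML3 and 0.72, 0.84 and 0.93 in HL-60. In OCI-AML3 at 3 h FLVCR2, ME1 and FBXO31 differed by 0.58, 0.56 and 0.34, under the fold criterion. ME1, which encodes the cytosolic malic enzyme, met the criteria for HL-60 at the later time with a rise of 0.63 ± 0.11 (adjusted p = 0.000831), and IL6ST did not, while FLVCR2 and FBXO31 were DEGs in none of the 4 treatment comparisons.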

How the data were processed

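Total RNA of untreated and CIGB-300-treated HL-60 and OCI-AML3 cells was measured on Clariom S HT arrays. The authors processed the scans with RMA (background correction, quantile normalization, summary by probe set), and what was deposited are log2 values. Versions of these tools are not given in the sources used here. Of 27189 features, 5741 control features were left out of the fit, and 17709 probe sets carry 1 gene symbol by the platform annotation. Groups came from the labels. The labels give 3 h for 3 untreated OCI-AML3 arrays whose titles read 30h, and the labels were followed. They do not say how the replicate cultures were separated, so p-values measure the spread between these arrays.

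A single model with the mean of each of the 8 groups was fitted over all 23 arrays in limma 3.58.1 (R 4.3.3, eBayes at its defaults), with Benjamini-Hochberg adjustment within each contrast. The contrasts were treated against untreated cells of the same line and time, the differences of these effects between lines and times, and untreated cells between times and lines. The fit was also run on simulated independent values with known changes, which checks the calculation and not the error rates in these data. The number of arrays limits the precision, and within groups the median probe set SD ranged from 0.12 to 0.18.

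Named are all 8 members, from each pathway list up to 4 DEGs per comparison by size of change, and for each member that was a DEG the 3 single-symbol probe sets with the highest Pearson r over the arrays. Other genes of the lists, such as JAK2, SOCS3, PTPN1 and PIM1, are named outside this rule and after their values were seen. The members, lists and tests were chosen with earlier results of these data known. The background guide was chosen after seeing the data. As alternatives, each array was left out in turn, the fit was restricted to 1 line or 2 groups, and the variance model, weighting of arrays, normalization, thresholds, control group, removal of dim probe sets and blocking by replicate number were varied one at a time. Promoters were read from RefSeq windows of GRCh38.p14 with pandas 2.3.3 under Python 3.11.15, and figures were drawn with matplotlib 3.10.9. Protein sequences were not analysed here.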

Additional observations from a re-analysis of the deposited data

Results flagged for a closer look

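These results were picked because they met the DEG criteria in the tests given, so the array positions only describe them. In the test of the difference between the lines, HL-60 minus OCI-AML3, the CIGB-300 effect on OSM met the DEG criteria at both times. Its adjusted p was under 0.05 at 30 min alone. The difference was -2.08 ± 0.35 at 30 min (limma adjusted p = 0.0155) and -1.21 ± 0.33 at 3 h (adjusted p = 0.0896). With 1 array left out it ran from -2.44 to -1.72 at 30 min and from -1.43 to -0.83 at 3 h. At 30 min OSM was lower in 3 of 3 treated HL-60 arrays and higher in 3 of 3 treated OCI-AML3 arrays than in every untreated array of the same line and time. The HL-60 difference itself did not meet the criteria (-0.36 ± 0.23, limma adjusted p = 0.871). The LIF line difference at 30 min was -0.97 ± 0.27 (adjusted p = 0.328), with 3 of 3 treated OCI-AML3 arrays above the untreated ones and overlapping arrays in HL-60. That difference was -0.78 without replicate 3 of untreated OCI-AML3 at 30 min. The effect on IL6ST in OCI-AML3 differed between the times by 1.33 ± 0.25 (adjusted p = 0.0513), with 3 of 3 treated arrays below the untreated ones at 30 min and 3 of 3 above them at 3 h. The untreated level of OSM moved with time in the same arrays, and its part in these differences was not tested.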

How the results depend on the processing

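The number of the 8 members called in the 4 treatment comparisons was unchanged when any single array was left out, at 0 for HL-60 at both times and at 2 and then 3 for OCI-AML3. With a fold change of at least 2 in place of 1.5, the count in OCI-AML3 at 3 h was 0 and that for the line difference at 30 min 1. With an adjusted p under 0.05 as the rule, the line difference counts were 1 at 30 min and 0 at 3 h, the time difference count in OCI-AML3 was 0, and those for untreated cells over time 0 and 0. For untreated cells over time the 2-fold rule also gave 0 and 0, and with only the HL-60 arrays in the fit the HL-60 count was 0. With dim probe sets left out, IL6ST itself was not tested and the time difference count in OCI-AML3 was 0, as its construction makes it. When 1 array was left out, the counts ran from 1 to 2 for the line difference at 30 min, 1 to 2 at 3 h, 0 to 1 and 1 to 2 for the time difference in HL-60 and OCI-AML3, 0 to 1 and 0 to 1 for untreated HL-60 and OCI-AML3 over time, and 3 to 4 and 2 to 3 for the untreated lines at 30 min and 3 h. Where the construction does not show it, the cause was not tested.

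Over all 21448 probe sets, the 188 and 830 DEGs of HL-60 and 230 and 343 of OCI-AML3 became 59, 655, 39 and 142 under the adjusted p rule and 44, 235, 45 and 70 under the 2-fold rule, and 90, 573, 86 and 171 over the 10724 brighter probe sets. Of 1104 single member values with p under 0.05 in the chosen fit under alternatives 1071 kept their call and direction and 0 reversed, and of 532 counts for the pathway lists 519 stayed within 1.5 times. Many alternatives leave out an array outside the comparison or change only a threshold, and so leave the value itself as it was. The member values were also picked by their p in these data, so these totals do not measure stability. Replicate numbers are shared by the groups, and the labels do not say whether same-numbered arrays were paired. No strong pairing was seen, with 0 of 11 correlations of same-numbered deviations over 0.1 (-0.01 to 0.08). With the replicate block the counts of members were still 0, 0, 2 and 3, and those over all probe sets 194, 831, 248 and 351. Every member has 1 probe set, so the alternative over several probe sets gave no value. Only 2 untreated OCI-AML3 arrays stand behind the 30 min comparison, where leaving out 1 assumes that the other varies like the remaining groups. Signals at or under the background guide, as for IL6, LIFR and OSMR in HL-60, limit what can be read from their differences. LIF, IL11 and IL6ST also came close to the guide or under it in HL-60, with lowest values of 4.59, 4.98 and 4.39. So did OSM in HL-60 at 3 h, with a lowest value of 4.80. The same limit therefore holds for the lack of calls of these members in that line, for OSM at 3 h alone. It holds as well for the OSM line difference at 3 h.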
